A study of Mus musculus with 6 samples.

Results

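The 10 genes described here, Gfap, Aqp4, Aldh1l1, Gja1, Gjb6, S100b, Aldoc, Glul, Sox9 and Fgfr3, are widely used markers of astrocytes. They were taken by symbol, from among 21667 named genes, by a rule that named them. The rule held no value measured in these samples, but the genes were chosen with earlier results of these data known. RNA from the somatosensory cortex was sequenced from 3 control mice and 3 Mef2c cKO mice. All were adult males, their strain was given as mixed SVeV-129; C57BL/6J, and every mouse carried 2 floxed copies of Mef2c (Mef2c fl/fl). The Mef2c cKO mice also carried Emx1-Cre, while the control littermates did not. Replicate 1 of each genotype was 14 weeks old and replicates 2 and 3 were 12 weeks old.

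Astrocytes take up glutamate and potassium released by active neurons, supply glutamine and metabolic fuel, and move water through channels in the endfeet that wrap blood vessels. They are joined to each other by gap junctions into networks. In injury and disease they raise intermediate filaments such as GFAP, a response called reactive gliosis, and in healthy cortex GFAP is strong mainly near the pial surface and in white matter. The Emx1-Cre driver recombines in the embryonic progenitors of the dorsal forebrain, whose descendants include pyramidal neurons and also cortical astrocytes and oligodendrocytes. The comparison therefore asks how astrocyte transcripts stand in a cortex where Mef2c was deleted in a lineage that holds neurons and some glia. By immunostaining, the study reported that cortical MEF2C protein lay mainly in neurons.

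Levels are given as CPM, the reads of a gene per 1000000 reads counted over all genes of that library. Libraries held between 19326365 (Mef2c cKO replicate 2) and 54128334 (Mef2c cKO replicate 3) counted reads. The 10 genes had between 746 and 70349 reads per library, so that counting error alone was at most 3.66% of a value. A gene was called when its adjusted p in limma was under 0.05 and its absolute log2 fold change, Mef2c cKO minus control, was above 0.3. Mef2c itself was read at 800.3, 771.8 and 800.2 CPM in the controls and at 1231.3, 1276.3 and 1468.2 CPM in the Mef2c cKO mice. Its log2 fold change was 0.74 ± 0.07 (SE, adjusted p = 0.00018). A count over the whole gene also takes reads from exons outside the floxed part, so it does not check the deletion. On western blots, the study reported strongly reduced MEF2C protein in the cortex and hippocampus of Mef2c cKO mice.

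Of the 10 astrocyte genes, 2 rose (Gfap and Aqp4), 1 fell (Aldh1l1) and 7 did not pass. Among all 14616 genes tested, 13.7% passed in either direction, 5.88% upwards and 7.78% downwards. All 10 lay above the filter on low values in every mouse. Their median log2 fold change was -0.03, beside 0.008 over all genes tested. Summed over the 10 genes, the level was 2673.8 to 2763.0 CPM in the controls and 2676.7 to 2810.7 CPM in the Mef2c cKO mice, a sum made up largely of Glul and Aldoc. In bulk tissue, fewer cells of a type and less RNA per cell cannot be told apart.

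**Figure D1:**
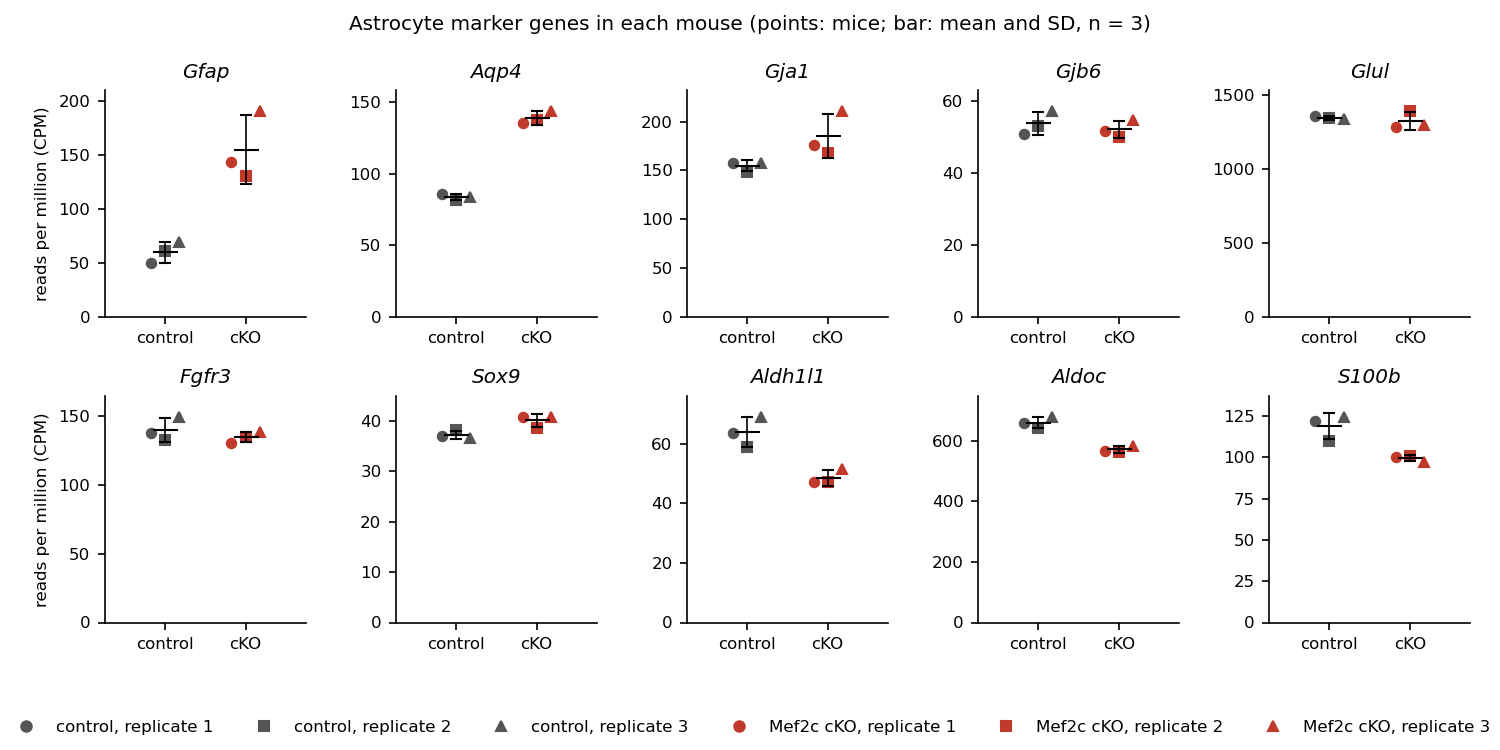
CPM of each of the 10 astrocyte marker genes in each mouse, on linear axes that start at 0, with circles, squares and triangles for replicates 1, 2 and 3 and bars for the mean and SD of 3 mice. Gfap and Aqp4 lie higher in all 3 Mef2c cKO mice, Aldh1l1 lies lower in all 3, and Gjb6, Glul and Fgfr3 overlap between the genotypes.

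Gfap, the intermediate filament protein of astrocytes, lies on chromosome 11 (102748650 to 102762226, minus strand, mm9). It was at 49.4, 60.8 and 68.7 CPM in the control mice. In the Mef2c cKO mice it was at 143.0, 130.0 and 190.8 CPM. The lowest Mef2c cKO mouse thus stood well above the highest control, although the gene also varied between mice of 1 genotype more than any other member, with an SD of 16.2% of the mean in controls and 20.7% in Mef2c cKO mice. Gfap rose 2.58-fold (log2 fold change 1.37 ± 0.15 SE, adjusted p = 0.0003), the largest change among the 10 genes. It ranked 85th by size among the 859 genes that rose. Over 16 other ways of processing the recovered counts, its log2 fold change ran from 1.21 to 1.48 and it passed in 16.

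Aqp4, the water channel of astrocyte endfeet, lies on chromosome 18 (15547903 to 15562193, minus strand). It was read at 85.9, 81.7 and 83.7 CPM in controls and at 135.2, 137.2 and 144.0 CPM in Mef2c cKO mice. The groups were far apart and narrow, with an SD of 2.5% and 3.3% of the mean. Aqp4 rose 1.66-fold (log2 fold change 0.73 ± 0.05 SE, adjusted p = 2.9e-05) and passed in 16 of 16 alternatives. By the size of its change it ranked 301st among the genes that rose.

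Gja1 and Gjb6 encode the main gap junction proteins of astrocytes. Gja1 (chromosome 10, 56097106 to 56110225, plus strand) was at 157.9, 148.1 and 158.0 CPM in controls and at 176.0, 168.2 and 211.3 CPM in Mef2c cKO mice. All 3 Mef2c cKO values were above the controls, but replicate 3 stood apart from the other two and the difference did not pass (log2 fold change 0.25 ± 0.08 SE, adjusted p = 0.078). Without Mef2c cKO replicate 2 it passed at a log2 fold change of 0.32 (adjusted p = 0.047), and without each of the other mice it did not, with adjusted p up to 0.2. Gjb6 (chromosome 14, 57742140 to 57752448, minus strand) had overlapping groups, with 50.7, 53.0 and 57.2 CPM in controls and 51.6, 49.8 and 54.6 CPM in Mef2c cKO mice. Its log2 fold change was -0.04 ± 0.07 (SE, adjusted p = 0.74).

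Aldh1l1 encodes an enzyme of folate metabolism and is often used as a marker of astrocytes throughout grey and white matter. The gene lies on chromosome 6 (90436421 to 90550197, plus strand). Its level was 63.6, 59.1 and 69.2 CPM in the control mice and 47.1, 47.1 and 51.7 CPM in the Mef2c cKO mice. It is the member that fell, to 0.762 of the control level (log2 fold change -0.39 ± 0.08 SE, adjusted p = 0.0066), and every control lay above every Mef2c cKO mouse. The call held without each mouse in turn, at an adjusted p between 0.0083 and 0.028. In the 12-week-old mice alone, 2 per genotype, the log2 fold change was -0.37 and the adjusted p was 0.063.

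Aldoc and S100b had small differences of the same sign. Aldoc, the brain form of the glycolytic enzyme aldolase, lies on chromosome 11 (78136470 to 78141283, plus strand) and was at 656.5, 642.5 and 679.3 CPM in controls against 566.8, 562.5 and 582.5 CPM in Mef2c cKO mice. S100b, a calcium-binding protein that mature oligodendrocytes also make, lies on chromosome 10 (75716598 to 75723904, plus strand) and was at 122.0, 110.0 and 124.6 CPM in controls against 100.1, 101.0 and 97.3 CPM in Mef2c cKO mice. The genotypes did not overlap for either gene. The log2 fold changes of -0.21 ± 0.05 (SE, adjusted p = 0.028) for Aldoc and -0.26 ± 0.06 (SE, adjusted p = 0.022) for S100b were under the size cut-off, so neither gene passed. With the adjusted p alone as the rule, 5 of the 10 genes would pass, beside 16.3% of all genes. S100b passed without control replicate 2 (log2 fold change -0.31, adjusted p = 0.014) and Aldoc in no alternative.

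Glul, Fgfr3 and Sox9 were the remaining members. Glul encodes glutamine synthetase, which turns glutamate and ammonia into glutamine, and lies on chromosome 1 (155747074 to 155756853, plus strand). It was at 1360.3, 1347.8 and 1336.1 CPM in controls and at 1285.2, 1396.4 and 1299.7 CPM in Mef2c cKO mice. The Mef2c cKO mice fell on both sides of the controls, with a log2 fold change of -0.02 ± 0.06 (SE, adjusted p = 0.84).

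Fgfr3, a fibroblast growth factor receptor that astrocyte precursors and mature astrocytes express, lies on chromosome 5 (34064373 to 34079716, plus strand). Its values of 137.7, 132.6 and 149.7 CPM in controls overlapped those of 130.8, 134.6 and 138.2 CPM in Mef2c cKO mice (log2 fold change -0.06 ± 0.06 SE, adjusted p = 0.61). Sox9, a transcription factor that in the adult cortex is largely restricted to astrocytes, lies on chromosome 11 (112643538 to 112649074, plus strand). Sox9 was at 36.9, 38.1 and 36.6 CPM in controls and at 40.8, 38.6 and 40.8 CPM in Mef2c cKO mice, without overlap but with a small difference (log2 fold change 0.11 ± 0.06 SE, adjusted p = 0.31). A p above the threshold does not show that these levels are equal. Values that did not overlap between the genotypes were found for 7 of the 10 genes, 4 higher and 3 lower in Mef2c cKO mice, beside 33.8% of all genes tested.

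**Figure D2:**
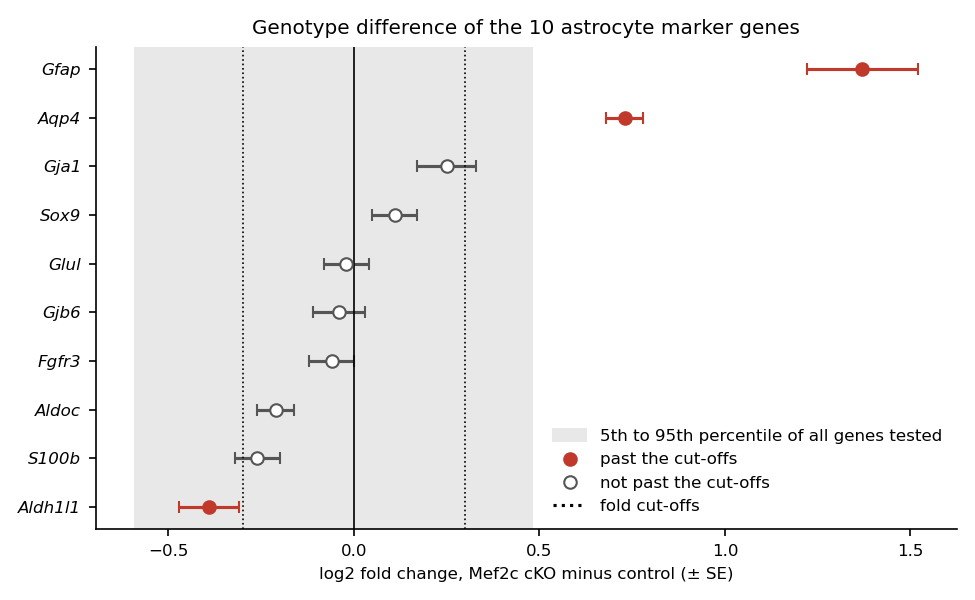
Log2 fold change, Mef2c cKO minus control, of the 10 astrocyte marker genes with its standard error, filled where the gene passed the cut-offs. The grey band holds the range from the 5th to the 95th percentile of all genes tested (-0.59 to 0.48), and Gfap at 1.37 and Aqp4 at 0.73 lie outside it.

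The annotation places other genes over 4 of the members. Gfap lies within the long noncoding gene Gm17536 on the opposite strand, Aldh1l1 overlaps Gm15756 and S100b overlaps the end of Dip2a, both on the opposite strand. Glul overlaps 3 gene models, 1 of them on its own strand. The libraries kept strand, but whether strand was used in counting is not given in the sources used here.

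The values can also be set side by side as the ratio of reads of 2 genes inside 1 library, which does not depend on how libraries are scaled. The ratio of Gfap to Aldh1l1 reads was 0.777, 1.03 and 0.993 in controls and 3.03, 2.76 and 3.69 in Mef2c cKO mice. The ratio of Aqp4 to Aldh1l1 reads was 1.35, 1.38 and 1.21 in controls and 2.87, 2.91 and 2.79 in Mef2c cKO mice. Within the astrocyte list, then, the genes moved apart in every Mef2c cKO library. The ratio of Gja1 to Gjb6 reads was 2.89 ± 0.195 (SD, n = 3) in controls and 3.55 ± 0.277 in Mef2c cKO mice. The pairs were chosen with the fold changes known, so the ratios are a description and carry no test.

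**Figure D3:**
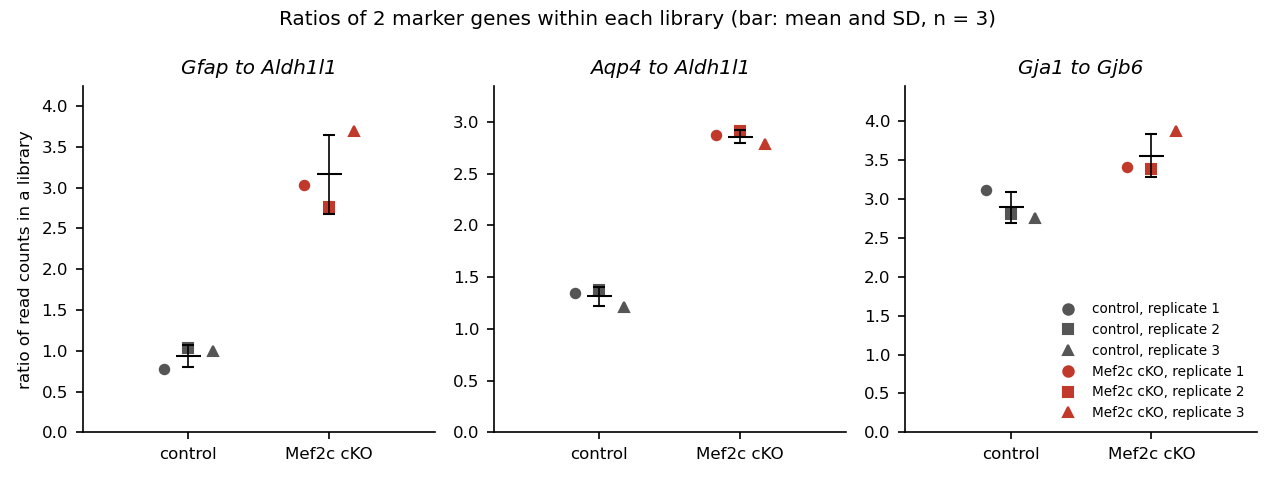
Ratio of the read counts of 2 astrocyte genes in each library, on axes that start at 0, with bars for the mean and SD of 3 mice. Gfap to Aldh1l1 runs from 0.777 to 1.03 in controls and from 2.76 to 3.69 in Mef2c cKO mice, and Aqp4 to Aldh1l1 from 1.21 to 1.38 and from 2.79 to 2.91.

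Levels of different genes can be compared only after division by length, here the summed exon length of the mm9 annotation (CPM per kb). In controls, Glul stood first at 404.9 ± 3.64 CPM per kb (SD, n = 3), followed by Aldoc at 202.1 ± 5.68, S100b at 80.1 ± 5.25 and Gja1 at 49.8 ± 1.83. Gjb6 (23.6 ± 1.46), Fgfr3 (20.4 ± 1.28), Aqp4 (15.8 ± 0.394), Aldh1l1 (14.2 ± 1.12) and Gfap (14.1 ± 2.29) came next on the same scale, and Sox9 was lowest at 8.99 ± 0.195. Aldh1l1 and Gfap were the neighbours in this order whose mice overlapped. In Mef2c cKO mice the order began in the same way, with Glul at 398.6 ± 18.2 CPM per kb, Aldoc at 174.9 ± 3.21, S100b at 67.0 ± 1.32 and Gja1 at 59.6 ± 7.39, the last pair overlapping. Gfap then stood in place 5 at 36.7 ± 7.59 CPM per kb, against place 9 in controls. Aqp4 (26.1 ± 0.868) followed it, ahead of Gjb6 (22.9 ± 1.06), Fgfr3 (19.6 ± 0.538), Aldh1l1 (10.8 ± 0.587) and Sox9 (9.69 ± 0.305).

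Likeness between members was measured as the root mean square distance of their log2 values over the 6 mice, each gene centred on its own mean. Gjb6 and Fgfr3 were closest to each other, at 0.047, and Aldoc and S100b at 0.054. Aldh1l1 was nearest to S100b at 0.095, Gja1 to Sox9 at 0.122, Sox9 to Glul at 0.093 and Glul to Fgfr3 at 0.072. Gfap was the most isolated member, with Aqp4 as its nearest at 0.382, while Aqp4 was nearer to Gja1 at 0.25. The mean profile of the members was nearly flat, from -0.111 in control replicate 2 to 0.15 in Mef2c cKO replicate 3 on the log2 scale. It averages members that rose with members that fell, so nearness to it is not nearness to each member. Among other tested genes with a mean of at least 5 CPM, the 5 nearest to this mean profile were Gpam (distance 0.021), Ippk (0.023), Ankrd44 (0.024), Il6st (0.026) and Atp2c1 (0.027).

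The sequence before the transcription start is shown for Gfap and Aldh1l1, the members that moved in opposite directions and have an entry in the promoter table of RefSeq (build GRCm38.p6), in which 8 of the 10 genes were found, all but Aqp4 and Sox9. Each line gives the 250 bases before the start, 5′ to 3′ on the strand of the gene, and capitals would mark a match to 1 of 4 motifs searched on both strands.
Gfap, chr11:102897201-102897450, minus strand: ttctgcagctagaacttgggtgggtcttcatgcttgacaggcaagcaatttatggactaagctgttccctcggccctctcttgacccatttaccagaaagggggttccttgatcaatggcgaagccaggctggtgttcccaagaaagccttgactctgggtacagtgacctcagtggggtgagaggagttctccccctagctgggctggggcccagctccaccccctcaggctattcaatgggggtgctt
Aldh1l1, chr6:90550543-90550792, plus strand: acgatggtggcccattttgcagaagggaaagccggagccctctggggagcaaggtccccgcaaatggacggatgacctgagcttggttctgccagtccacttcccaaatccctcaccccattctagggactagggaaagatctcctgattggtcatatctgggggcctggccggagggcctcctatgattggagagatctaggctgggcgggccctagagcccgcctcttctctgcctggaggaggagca
The motifs were that of MEF2 factors (CTANNNNTAG), which 3.2% of 32851 promoter windows held, and that of STAT factors (TTCNNNGAA, 7.02%). The others were a half-site of nuclear factor I (NFI) (TTGGCA, 12.3%) and the motif of AP-1 (TGANTCA, 6.75%). None of these motifs contains another. None of the 4 was found in these stretches, which says only that these letters are absent there. The windows of the members held 250 bases before the start and 50 after it. Among the 10 windows of the 8 genes, none held the MEF2 motif. The AP-1 motif was found once in the window of Gja1. The NFI half-site was found once in that of S100b and once at 1 of 2 starts of Aldoc. The STAT motif was found at 2 places in the window of the other start of Aldoc.

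Genes that share the tasks of astrocytes, and genes of the fibroblast growth factor (FGF) and connexin families, were read from 9 lists in the same fit. Several are also or mainly made by other cells, such as Fgf9, Fgf12 and Gjd2 by neurons and Gjb1 by oligodendrocytes. Counts over these lists are therefore not counts of astrocyte genes alone. Leaving out the 10 markers, 165 genes were tested, of which 23 rose, 15 fell and 127 did not pass. The 23.0% that passed stand beside 13.7% of all genes tested, and the median log2 fold change was 0.04. The lists were chosen with earlier results of these data known, so this share and those of the single lists are a description and carry no test. Of the 38 called genes, 22 passed in each of the 6 fits that left out a mouse. In the 12-week-old mice alone, 26 of the 165 genes passed, and among the called genes named below Tead1, Id4, P2ry1, Fgfr1, Notch1, Adra1a, Fgf22, Etv1, Ptn, Cd109, Gjd2 and Gjb1 did not (adjusted p 0.074 to 0.28), nor did Kcnj16, Fgf9 and Fkbp5, whose values are given with them.

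For uptake of transmitter and supply of amino acids, 2 of 16 genes rose and none fell, a share of 12.5% beside the 13.7% of all genes, and the median log2 fold change was 0.10. An unadjusted p under 0.05 was found for 7 of the 16. The summed level, of which Slc1a2 is the largest part, was 5284.6 to 5711.5 CPM in controls and 4759.0 to 5045.2 CPM in Mef2c cKO mice. Phgdh, the first enzyme of serine synthesis, was at 110.1, 100.1 and 107.7 CPM in controls and at 156.9, 125.7 and 151.2 CPM in Mef2c cKO mice (log2 fold change 0.44 ± 0.09 SE, adjusted p = 0.0071). Slc6a9, a glycine transporter, rose by 0.33 on the log2 scale (± 0.07 SE, adjusted p = 0.014), with 36.1 to 38.1 CPM in controls and 42.8 to 49.4 CPM in Mef2c cKO mice. Without control replicate 2, Mef2c cKO replicate 2 or Mef2c cKO replicate 3 it did not pass, at an adjusted p of 0.054, 0.052 and 0.051. The most abundant gene of the list was Slc1a2, the main glutamate transporter of astrocytes, at 3578.3, 3302.3 and 3339.7 CPM in controls and at 2738.8, 3014.2 and 2838.9 CPM in Mef2c cKO mice. Its groups did not overlap, and at -0.25 ± 0.07 (SE, adjusted p = 0.046) it was under the size cut-off.

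Among 15 genes for handling of ions and water and for gap junctions, 1 rose and 2 fell (median 0.02). Dtna, a dystrobrevin of the dystrophin complex in the endfoot membrane, fell from 247.3, 254.5 and 247.8 CPM to 190.5, 194.0 and 198.2 CPM (-0.36 ± 0.05 SE, adjusted p = 0.001). The genotypes did not overlap for Dtna. Kcnj16, a potassium channel subunit, fell by 0.52 on the log2 scale (adjusted p = 0.015), though not past the threshold without Mef2c cKO replicate 1 (-0.46, adjusted p = 0.052) or in the 12-week-old mice alone (-0.35, adjusted p = 0.1).

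None of 25 genes of lipid, metal and redox metabolism passed in limma, nor with voom weights, while 6 had an unadjusted p under 0.05, and the median was 0.05. The most abundant was Clu, the secreted chaperone clusterin, at 670.3 to 763.3 CPM in controls and 734.0 to 883.9 CPM in Mef2c cKO mice (log2 fold change 0.17 ± 0.08 SE, adjusted p = 0.21).

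Of 19 transcription factors of the astrocyte lineage tested, 4 rose and 2 fell (median 0.01). Id3, a regulator that blocks the binding of helix-loop-helix factors to DNA, was at 32.6, 38.4 and 35.3 CPM in controls and at 93.1, 64.8 and 64.4 CPM in Mef2c cKO mice (1.04 ± 0.14 SE, adjusted p = 0.00078). Sox8 rose by 0.76 ± 0.08 (SE, adjusted p = 0.00026) on the log2 scale, from 28.9 to 35.6 CPM in controls to 53.3 to 55.4 CPM. Sox8 is also made by oligodendrocytes.

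Tead1 rose as well (0.38 ± 0.09 SE, adjusted p = 0.023), but did not pass without control replicate 1, control replicate 2 or Mef2c cKO replicate 1, at an adjusted p of 0.077, 0.079 and 0.078. Id4 rose by 0.47 on the log2 scale (± 0.12 SE, adjusted p = 0.03) and passed without Mef2c cKO replicate 2, but without each of the other mice its adjusted p was 0.062 to 0.1. Nfib, a nuclear factor I protein needed for gliogenesis, fell from 126.0, 127.9 and 138.2 CPM to 92.8, 87.2 and 98.4 CPM (-0.49 ± 0.07 SE, adjusted p = 0.00084). Lhx2, a transcription factor of cortical progenitors, fell by 0.46 on the log2 scale (adjusted p = 0.0014). Nfix, the most abundant of the list, had a log2 fold change of -0.14 (adjusted p = 0.32). Sox2 is listed at 0 reads in every library, which does not show that the gene is silent.

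Receptors of astrocytes held the largest share of called genes among the 9 lists, with 7 of 20 up and 2 down, or 45.0% (median 0.13). Nr3c2, the mineralocorticoid receptor, was at 23.9, 24.4 and 25.2 CPM in controls and at 46.8, 51.8 and 56.1 CPM in Mef2c cKO mice (1.07 ± 0.08 SE, adjusted p = 2.8e-05). Ntsr2, a neurotensin receptor enriched in astrocytes, was at 75.2, 78.7 and 70.7 CPM in controls and at 124.5, 117.0 and 117.2 CPM in Mef2c cKO mice (0.68 ± 0.06 SE, adjusted p = 0.0001). Several of these receptors are made by neurons too, Nr3c2 among them.

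P2ry1, a receptor for ATP and ADP, rose by 0.82 on the log2 scale (± 0.20 SE, adjusted p = 0.02) but did not pass without control replicate 2, Mef2c cKO replicate 1 or Mef2c cKO replicate 3, at an adjusted p of 0.074, 0.071 and 0.061. Adgrg1, an adhesion receptor listed under its older name Gpr56, was at 36.9 to 40.1 CPM in controls and at 48.0 to 56.3 CPM in Mef2c cKO mice (0.47 ± 0.08 SE, adjusted p = 0.003). Lgr6, a receptor for R-spondins, was low throughout, at 2.65, 2.79 and 2.89 CPM in controls and at 1.22, 0.724 and 0.961 CPM in Mef2c cKO mice (-1.45 ± 0.20 SE, adjusted p = 0.0011). Fgfr1, Notch1 and Ednrb rose by 0.34, 0.34 and 0.38 on the log2 scale, and Adra1a fell by 0.38. Without Mef2c cKO replicate 3 none of these 4 passed, with log2 fold changes of 0.30, 0.30, 0.29 and -0.38 and adjusted p of 0.037, 0.092, 0.092 and 0.075, and Notch1, Ednrb and Adra1a were also lost without several other mice, keeping the call in 1, 2 and 2 of 6 fits. Gpr37l1, the most abundant of the list, had a log2 fold change of 0.02 (adjusted p = 0.9).

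FGF ligands and targets of FGF signalling, the pathway of Fgfr3, had 1 gene up and 4 down among 19 (median -0.14). Fgf10 was at 7.17, 7.69 and 5.74 CPM in controls and at 13.0, 13.0 and 14.9 CPM in Mef2c cKO mice (0.98 ± 0.13 SE, adjusted p = 0.0008). Fgf9, a secreted ligand that activates FGFR3, fell from 39.0, 35.6 and 36.0 CPM to 25.8, 30.9 and 24.0 CPM (-0.46 ± 0.10 SE, adjusted p = 0.012). In the 12-week-old mice alone Fgf9 did not pass (-0.39, adjusted p = 0.11). Fgf9 is made largely by neurons. Fgf12, the most abundant of the list, acts inside neurons on sodium channels and not as a secreted ligand, and it fell by 0.63 on the log2 scale (± 0.06 SE, adjusted p = 0.0001). Fgf22 (-0.55, adjusted p = 0.035) and the transcription factor Etv1 (-0.43, adjusted p = 0.017) fell too. Fgf22 passed without Mef2c cKO replicate 2 but without no other mouse (adjusted p 0.085 to 0.11), and Etv1 did not pass without Mef2c cKO replicate 1 or 3 (adjusted p = 0.053 and 0.05). The feedback inhibitors Spry1, Spry2, Spry4, Spred1, Spred2 and Dusp6 did not pass.

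Of 20 secreted and synapse-regulating factors, 3 rose and 3 fell (median 0.04). Gpc4, a glypican by which astrocytes promote the formation of excitatory synapses, was at 8.06, 9.98 and 7.78 CPM in controls and at 33.0, 32.2 and 38.7 CPM in Mef2c cKO mice (2.0 ± 0.12 SE, adjusted p = 8.1e-06). Sparc, which opposes synapse formation, was at 112.6, 113.0 and 117.4 CPM in controls and at 219.8, 177.5 and 206.7 CPM in Mef2c cKO mice (0.81 ± 0.08 SE, adjusted p = 0.00014). Chrdl1, an astrocyte factor that matures synapses, moved the other way, from 20.1, 16.6 and 16.2 CPM to 7.79, 7.92 and 7.24 CPM (-1.19 ± 0.11 SE, adjusted p = 0.00011). The groups of all 3 genes were far apart.

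Mfge8, a protein that marks dying cells for engulfment, fell by 0.39 on the log2 scale (adjusted p = 0.0077), and Gpc6, another glypican, by 0.37 (adjusted p = 0.043). Gpc6 passed without Mef2c cKO replicate 1 but not without any other mouse, where its adjusted p was 0.057 to 0.13. Ptn, a growth factor, rose by 0.39 (adjusted p = 0.034) and passed without control replicate 2 or Mef2c cKO replicate 2, but without each of the others its adjusted p was 0.083 to 0.11. Sparcl1, the most abundant of the list and a promoter of synapse formation, was at 1784.9, 1651.5 and 1628.2 CPM in controls and at 1591.0, 1623.8 and 1633.5 CPM in Mef2c cKO mice (-0.06 ± 0.06 SE, adjusted p = 0.58).

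Reactive astrocyte genes are those known to rise with Gfap after injury or inflammation. Of 35 listed, 25 were above the filter, and of these 4 rose, 1 fell and 20 did not pass (median 0.04). Aspg, an asparaginase, was at 3.82, 4.29 and 3.67 CPM in controls and at 22.0, 12.5 and 24.6 CPM in Mef2c cKO mice (2.24 ± 0.22 SE, adjusted p = 0.00017). Ptgs2, a prostaglandin synthase that cortical pyramidal neurons also make, was at 12.0, 9.37 and 8.38 CPM in controls and at 24.2, 20.0 and 24.9 CPM in Mef2c cKO mice (1.22 ± 0.14 SE, adjusted p = 0.0004). Fkbp5, a chaperone induced by glucocorticoids, was at 15.6, 17.6 and 17.2 CPM in controls and at 24.7, 22.2 and 28.4 CPM in Mef2c cKO mice (0.57 ± 0.10 SE, adjusted p = 0.0048), and did not pass in the 12-week-old mice alone (0.53, adjusted p = 0.05). In all 3 genes every Mef2c cKO mouse lay above every control.

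Cd109 rose by 1.26 on the log2 scale (± 0.36 SE, adjusted p = 0.044) at levels between 0.47 and 2.66 CPM. It passed without control replicate 3 or Mef2c cKO replicate 2, but without each of the others its adjusted p was 0.11 to 0.14. S1pr3, a sphingosine-1-phosphate receptor, fell by 0.74 (± 0.12 SE, adjusted p = 0.0032). Vim, the intermediate filament that accompanies GFAP in reactive astrocytes, was at 19.4, 13.2 and 17.6 CPM in controls and at 21.9, 16.6 and 23.6 CPM in Mef2c cKO mice. These values overlap (log2 fold change 0.31 ± 0.17 SE, adjusted p = 0.26).

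Serpina3n, which rises strongly in most reactive states, was at 7.88, 7.45 and 7.88 CPM in controls and at 9.71, 6.26 and 13.4 CPM in Mef2c cKO mice (0.27 ± 0.23 SE, adjusted p = 0.49). Lcn2, Timp1, Cxcl10, Steap4, C3, Tgm1, Ptx3, Slc10a6 and B3gnt5 were below the filter, none above 0.85 CPM in any mouse. C4b is listed at 0 reads throughout, which does not show that the gene is silent. Vim and Serpina3n are shown because they are standard companions of Gfap and were chosen after their values were seen. The ratio of Gfap to Vim reads was 3.69 ± 1.05 (SD, n = 3) in controls and 7.49 ± 0.83 in Mef2c cKO mice.

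Connexins, the gene family of Gja1 and Gjb6, had 1 gene up and 1 down among 9 tested (median 0.24). Gjb1, a connexin of oligodendrocytes, was at 6.09, 5.51 and 7.28 CPM in controls and at 9.47, 8.95 and 9.13 CPM in Mef2c cKO mice (0.55 ± 0.12 SE, adjusted p = 0.016). Gjd2, the connexin of electrical synapses between neurons, fell from 6.12, 5.77 and 4.95 CPM to 3.05, 4.5 and 3.47 CPM (-0.61 ± 0.17 SE, adjusted p = 0.035). Gjb1 did not pass without control replicate 2 or Mef2c cKO replicate 1 (adjusted p = 0.056 and 0.052). Gjd2 passed without control replicate 3 or Mef2c cKO replicate 2, but without each of the others its adjusted p was 0.093 to 0.11.

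**Figure D4:**
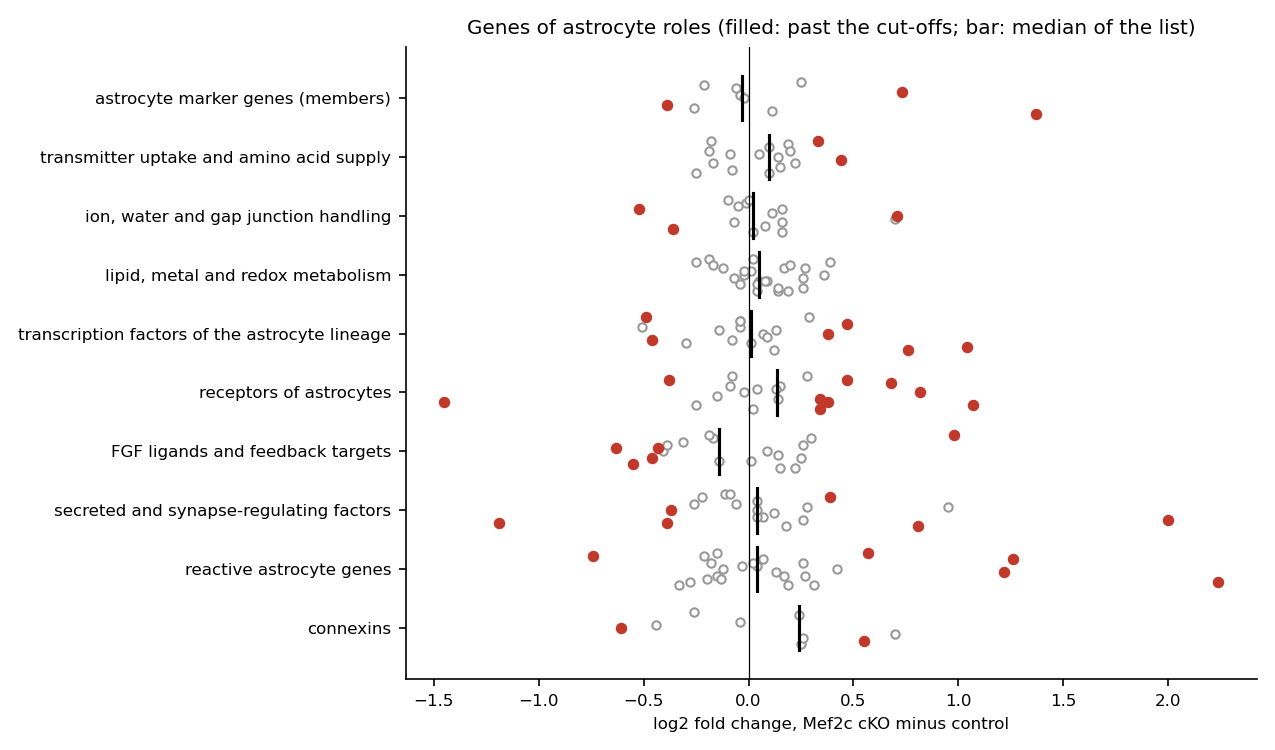
Log2 fold change, Mef2c cKO minus control, of each tested gene in the astrocyte marker list and in 9 lists of astrocyte roles, filled where the gene passed the cut-offs, with a bar at the median of each list. The medians run from -0.14 (FGF ligands and feedback targets) to 0.24 (connexins), and single genes reach from -1.45 (Lgr6) to 2.24 (Aspg).

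Markers of other cells and of regions next to the somatosensory cortex were read beside these results. All 12 oligodendrocyte genes had a positive log2 fold change (median 0.51) and 2 of 12 passed, and their summed level was 3428.1 to 5626.1 CPM in controls and 5536.0 to 7140.4 CPM in Mef2c cKO mice. Oligodendrocyte precursor genes had 3 of 10 up and none down, at 260.9 to 283.3 CPM and 303.9 to 343.5 CPM in sum. None of 12 microglia genes, 12 endothelial genes or 10 mural cell genes passed in limma, nor with voom weights, and 3, 2 and 2 of them had an unadjusted p under 0.05. The summed levels ran from 552.0 to 883.0 CPM in controls and from 425.6 to 673.8 CPM in Mef2c cKO mice for microglia, from 365.4 to 404.0 and from 350.8 to 360.1 CPM for endothelial cells, and from 159.8 to 162.6 and from 148.2 to 176.4 CPM for mural cells.

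Meningeal genes had 1 of 10 up and 1 down, with sums of 89.6 to 98.4 CPM in controls and 155.9, 82.7 and 132.9 CPM in Mef2c cKO mice. Striatal genes had 2 of 9 up, with 195.0 to 273.1 CPM in controls and 432.9, 214.9 and 390.4 CPM in Mef2c cKO mice. In both sums Mef2c cKO replicates 1 and 3 were high and replicate 2 was not. Among the Mef2c cKO mice Gfap too was lowest in replicate 2, at 130.0 CPM, still above the highest control at 68.7 CPM. Aqp4 was lowest in replicate 1, with 135.2, 137.2 and 144.0 CPM in replicates 1, 2 and 3. The genes of the meningeal and striatal lists that rose, Dcn, Drd1 and Penk, lay above every control in all 3 Mef2c cKO mice. Thalamic genes had 1 of 9 up and 3 down, at 165.3 to 200.5 CPM and 109.1 to 116.0 CPM in sum, with a median log2 fold change of -0.09. Rora, the largest part of this sum, fell with Ntng1 and Slc17a6, while Prkcd rose by 0.55 on the log2 scale (adjusted p = 0.038). Choroid plexus and ependyma genes had 2 of 9 up, at 16.3 to 44.6 CPM and 25.7 to 38.8 CPM in sum. Of these lists no gene was at 0 in every mouse. The part of cell composition, white matter or dissection in the changes of the astrocyte genes was not tested.

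**Figure D5:**
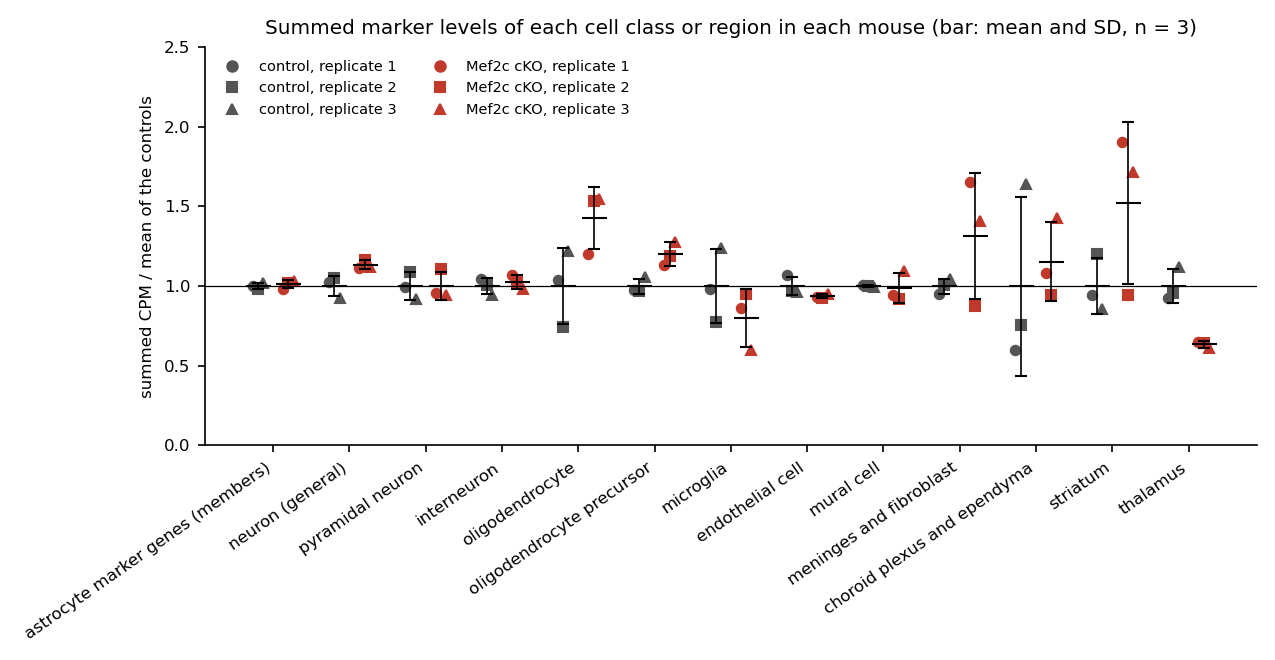
Summed CPM of each marker list in each mouse, divided by the mean of the 3 controls, on an axis that starts at 0, with bars for the mean and SD of 3 mice. The sum of the 10 astrocyte genes stays close to 1 in all 6 mice, oligodendrocyte sums are higher in Mef2c cKO mice with overlap, and the meningeal and striatal sums are high in Mef2c cKO replicates 1 and 3.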

How the data were processed

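The 6 libraries, 1 per mouse, were made from polyA RNA by a directional protocol. Per the labels and the study's methods, the authors aligned reads to mm9 with TopHat and Bowtie, counted reads per gene with HTSeq and deposited RPKM, reads per kilobase of length and per 1000000 reads, 1 table per mouse. The version of each tool is not given in the sources used here. No column of the authors' own comparisons was present in the files used.

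The deposited RPKM could not be compared between mice as they stand, since the length used for a gene differed from table to table. The lengths repeated down the rows, once these were ordered by gene ID as text, with a period of 130, 249 and 232 rows in control replicates 1, 2 and 3 and of 130, 65 and 296 in Mef2c cKO replicates 1, 2 and 3. This gave the step of 1 read for each gene and so whole read counts (within 0.02 reads), and the total for which every length came out whole. At least 99.76% of the values above 0 were recovered in each table. On 12 simulated tables, 100% of the recovered counts were right, at least 99.62% were recovered, and 11 of the 12 totals were found. Of 21759 rows, 92 had no gene name and were left out.

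Counts were divided by the total to give CPM. limma (version 3.58.1, R 4.3.3; lmFit and eBayes with a variance trend) was run on log2(CPM + 0.1) over all genes above 0.5 CPM in every mouse of at least 1 genotype, with Benjamini-Hochberg adjustment over all 14616 genes tested. Fold changes are on the log2(CPM + 0.1) scale, which understates those of low genes. The cut-offs and the filter follow the study's methods, which filtered on RPKM. No count model was fitted, since the deposited unit is RPKM. In simulated data of the same comparison with 14616 genes, 78% of 100 genes changed by 0.5 on the log2 scale and 99% of 100 genes changed by 1 were called, with 11 false calls. The design text calls the 3 samples of a genotype independent.

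The 10 genes and all lists were chosen with earlier results of these data known. The genes named are the 10 and Mef2c, up to 5 called genes with the largest change plus the most abundant gene of each astrocyte list, up to 2 called genes of each other list, and the nearest genes by profile; other names were added after their values were seen. Single results of 2 genes that this rule names are not reported here. Coordinates and exon lengths are those of GENCODE M1 (mm9). Gpr56 was matched to Adgrg1 and Drd1a to Drd1 by gene ID. Alternatives were other pseudocounts, filters, scaling, weights, a replicate block, an age term, the 12-week-old mice alone, the deposited RPKM, and leaving out each mouse.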

Additional observations from a re-analysis of the deposited data

How the results depend on the processing

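Under 12 of the 17 alternatives each of the 10 astrocyte genes kept its direction and its side of the cut-offs. The number of genes called was 1996, of which 3 were astrocyte markers and 38 others belonged to the astrocyte lists. In the deposited RPKM, whose lengths differ between tables, these counts were 14, 0 and 0. There the log2 fold changes took the other sign for Gja1 (-2.08), S100b (2.1), Aldoc (0.79), Glul (0.54), Sox9 (-0.17), Slc6a9 (-0.52), Dtna (0.61), Sox8 (-0.61), Nfix (0.23), Ntsr2 (-0.99), Ptn (-2.36), Sparcl1 (2.35), Stmn2 (-2.82), Sst (-1.38), Cldn11 (-0.59), Olig1 (-0.28) and Drd1 (-0.26), none of which passed. The SD of log2 ratios between mice of 1 genotype was 2.41 to 2.49 in those values and 0.24 to 0.31 in CPM. Without single mice, 1656 to 1868 genes were called, 3 to 4 of them astrocyte markers and 28 to 42 of the astrocyte lists. Close to 0, the sign also turned for Gjb6 without control replicate 3 (0.00, within -0.08 to 0.00 without single mice), for Glul in the 12-week-old mice alone (0.01), and for Gpr37l1, which ran from -0.03 to 0.1 without single mice, without control replicate 1 (-0.03), control replicate 2 (0.00), Mef2c cKO replicate 2 (-0.01) or Mef2c cKO replicate 3 (-0.02). Mice with the same replicate number did not deviate together (correlations of -0.176, -0.108 and -0.081 over 14616 genes). A fit with a replicate block called 1694 genes, 3 astrocyte markers and 31 of the astrocyte lists. With 3 mice per genotype, differences near 0.3 on the log2 scale are at the limit of what could be called.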

Other observations

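Genes of neurons and other cells were read in the same fit and with the same cut-offs as the astrocyte lists, but fewer of them are named. Among 12 pyramidal neuron genes 4 rose and 4 fell. Among those that fell were Emx1, a transcription factor of cortical projection neurons, and Rorb, a marker of layer IV. Per the study's methods, Cre sits in the endogenous Emx1 gene, so only the Mef2c cKO mice carry a changed Emx1 copy. For Emx1, this insertion and the loss of Mef2c cannot be told apart. Emx1 was at 16.5, 20.3 and 18.8 CPM in controls and at 5.71, 4.97 and 5.1 CPM in Mef2c cKO mice (log2 fold change -1.79 ± 0.11 SE, adjusted p = 1.2e-05 in limma). Rorb was at 25.7, 25.4 and 27.0 CPM in controls and at 8.49, 6.99 and 7.72 CPM in Mef2c cKO mice (-1.74 ± 0.10 SE, adjusted p = 5.7e-06). Cux2, a marker of upper layers added after its values were seen, also fell by 1.74 (± 0.08 SE, adjusted p = 2.4e-06), from 89.5, 100.3 and 98.7 CPM to 31.4, 26.4 and 28.3 CPM. Among 12 interneuron genes, Pvalb, the marker of fast-spiking interneurons, fell from 62.7, 57.2 and 60.9 CPM to 31.5, 39.3 and 33.5 CPM (-0.80 ± 0.09 SE, adjusted p = 0.0003). Sst rose by 0.57 on the log2 scale (adjusted p = 0.034) and Stmn2, of the 12 general neuron genes, by 0.34 (adjusted p = 0.025), and each lost its call without several single mice, with adjusted p of up to 0.11 and 0.075. Eno2, a neuronal enolase, rose by 0.34 (adjusted p = 0.0052).

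Cldn11, a tight junction protein of myelin, was at 131.2, 109.4 and 144.9 CPM in controls and at 176.4, 242.3 and 239.5 CPM in Mef2c cKO mice (0.77 ± 0.14 SE, adjusted p = 0.0042). Olig1, of the oligodendrocyte lineage, rose by 0.39 on the log2 scale (± 0.08 SE, adjusted p = 0.011). Mobp (0.64, adjusted p = 0.034) and Sox10 (0.44, adjusted p = 0.05) of the same lineage passed in 2 of the 6 fits that left out a mouse. Dcn, a proteoglycan of meningeal fibroblasts, was at 7.88, 7.17 and 6.15 CPM in controls and at 50.8, 12.7 and 33.5 CPM in Mef2c cKO mice (1.97 ± 0.40 SE, adjusted p = 0.0092), while the collagens Col1a1 and Col1a2 of the same cells had overlapping groups. Igfbp2 of the same list fell by 0.45 (adjusted p = 0.025) and passed in 3 of those 6 fits. Drd1, a dopamine receptor, was at 20.2, 21.4 and 17.7 CPM in controls and at 69.5, 49.6 and 77.4 CPM in Mef2c cKO mice (1.70 ± 0.15 SE, adjusted p = 8.6e-05), and Penk, an opioid precursor, rose by 1.31 (± 0.13 SE, adjusted p = 0.00015). Of the thalamic list, Ntng1 fell by 1.46 (adjusted p = 7.9e-06) and Rora by 1.14 (adjusted p = 0.0047), and of the ependymal list Rsph1 rose by 1.07 (adjusted p = 0.022) and Foxj1 by 0.79 (adjusted p = 0.044), passing in 4 and 2 of the 6 fits.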
